A study of Mus musculus with 162 samples.

Results

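Glucocorticoids are steroid hormones of the adrenal cortex that rise with stress. They enter cells and bind the glucocorticoid receptor, a transcription factor held in the cytoplasm by heat shock proteins, and the bound receptor moves to the nucleus and raises or lowers the transcription of many genes. In the nervous system the genes it raises are expressed in neurons, glia and vessel cells, and in skin they are known for damping inflammation and for controlling barrier and metabolic genes. The 9 genes described here are Fkbp5, Hif3a, Tsc22d3, Sgk1, Zbtb16, Pdk4, Ddit4 and Plin4, which are known to be raised by glucocorticoids, and Nr3c1, which encodes the receptor. They were picked by name, with measured values of these libraries in view, from the 46078 genes in each file, and the choice has no threshold. The values that chose them were their levels in MC903 and ethanol mice of every group described here, first of all at day 8, in spinal cord against ganglion and skin. For that reason each comparison of MC903 with ethanol is a description of the 9 genes, given with its error and without a p, and nothing is read from how many of the 9 pass a threshold in it.

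The study treated adult male C57BL/6 mice once daily with 0.2 mM MC903 (calcipotriol, a vitamin D analog that causes itch and an inflammation like atopic dermatitis), or with its vehicle ethanol, and sequenced poly(A) RNA. Skin and trigeminal ganglion (TG), which holds the sensory neurons of the face, came from mice treated on the cheek, and thoracic spinal cord came from mice treated on the back, so that the skin and TG values are not from the mice whose cords were measured. Per the study's methods the back received a larger volume of the same concentration than the cheek. Of 162 libraries 144 were used, 61 of skin, 56 of TG and 27 of spinal cord, and the 18 wild-type libraries of day 12 were left out. Wild-type mice without injection (no_injection) gave skin and TG at days 1, 2, 5 and 8 and cord at day 8. Per the study's methods, day 1 was sampled some hours after the first treatment and not after a full day. Wild-type mice injected with 250 µg of anti-Gr1 (aGr1), an antibody that depletes neutrophils, or with its vehicle PBS gave all 3 tissues at day 8. TSLPR.KO mice, which lack Crlf2, a subunit of the receptor for the cytokine TSLP, gave skin and TG at days 8 and 12, and BLT1.KO mice, which lack the leukotriene B4 receptor gene Ltb4r1, gave skin at day 8. Both deletions are carried by the ethanol mice of those groups too and are not limited to a cell type. The TG and skin libraries of day 8 without injection have titles of 2 styles, called cohorts A and B here, and what sets them apart is not stated. Groups held 2 to 8 libraries. The labels do not say that replicates are separate animals, so the tests measure the spread between libraries, which may be technical.

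Each library held between 15931871 and 67342879 counts on genes (median 27654801), and each of the 9 genes had at least 21 counts in every library. Levels are given in cpm, a gene's counts per 1000000 counts on genes. The tissues carried the markers of their labels: sums over the marker lists showed sensory neuron genes in TG and central neuron and oligodendrocyte genes in cord, with the 5 keratinocyte genes at no more than 18.9 cpm in the cords without injection. A few libraries stood apart. Replicate 3 of the MC903 skin of day 2 held 1072 cpm of the 6 sensory neuron genes, against at most 40.7 in any other skin library. In TG at day 1, MC903 replicates 1 and 2 held 2071 and 2340 cpm of oligodendrocyte genes, against at most 1051 in the other TG libraries, and replicate 1 also held 277 cpm of keratinocyte genes. The TG library labelled wild-type, ethanol, day 8, cohort B, replicate 2 had 0.117 cpm of Crlf2, within the range of the TSLPR.KO ganglia of day 8, whose highest value was 0.183, and the values of day 8 TG that it moves are given without it as well. In the BLT1.KO skin Ltb4r1 was not lower than in the wild-type skin, and the files do not show which part of that gene was deleted.

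The sequences before the transcription starts are shown first because the receptor binds DNA as a pair of facing 6-base elements, AGAACA and TGTTCT, with 3 bases between them. The RefSeq promoter windows of GRCm38.p6 each hold 250 bases before a start and 50 after. Of them 14 were read, for 7 of the 9 genes, with 6 for Sgk1 and 3 for Tsc22d3. None was read for Zbtb16 or Nr3c1, so nothing is said of their starts. TGTTCT or AGAACA, searched on both strands, was in 4 of these 14 windows, against 6233 of all 32851 windows (19%). The pair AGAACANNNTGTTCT was in 3 of all windows (0.00913%), and 1 of them belonged to Sgk1. The stretches below lie before the start and outside the exons annotated for the gene, 5′ to 3′ on the gene's own strand, with the elements in capitals. In Sgk1 (chr10:21993640-21993889, plus strand, inside the gene and before an internal start) elements begin 242, 189 and 180 bases before the start, and the last 2 form the pair. In Tsc22d3 (chrX:140600660-140600772, minus strand) a single element begins 185 bases before the start. In Fkbp5 (chr17:28486150-28486399, minus strand, inside the gene) the window holds neither 6-base sequence. These matches describe letters only.
Sgk1: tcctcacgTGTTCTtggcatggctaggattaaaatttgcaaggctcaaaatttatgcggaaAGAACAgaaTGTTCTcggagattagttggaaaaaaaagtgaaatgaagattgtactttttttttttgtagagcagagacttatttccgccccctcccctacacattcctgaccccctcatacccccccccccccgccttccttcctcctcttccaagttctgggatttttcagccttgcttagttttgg
Tsc22d3: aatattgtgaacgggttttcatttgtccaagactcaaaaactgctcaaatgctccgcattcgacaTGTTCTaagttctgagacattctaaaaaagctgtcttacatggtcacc
Fkbp5: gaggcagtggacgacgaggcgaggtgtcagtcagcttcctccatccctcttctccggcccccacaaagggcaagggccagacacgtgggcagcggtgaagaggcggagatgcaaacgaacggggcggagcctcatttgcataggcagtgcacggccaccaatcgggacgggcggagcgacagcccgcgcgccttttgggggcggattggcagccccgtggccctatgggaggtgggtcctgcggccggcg

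In spinal cord at day 8, without injection, the 8 induced genes were higher in every one of the 4 MC903 libraries than in any of the 5 ethanol libraries, and the receptor gene Nr3c1 was lower in every one. Plin4 stood 15.6-fold higher, Sgk1 5.6-fold, Ddit4 and Hif3a about 4.0-fold, Fkbp5 3.5-fold, Pdk4 2.7-fold, Zbtb16 1.9-fold and Tsc22d3 1.3-fold. The genes were chosen with these values in view, so they are given as a description with no test. The share of all genes without overlap is not given, here or below, so nothing is read from how many of these genes did not overlap. In these bulk samples more cells that express a gene and more RNA per cell cannot be told apart.

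Fkbp5 (ENSMUSG00000024222, chromosome 17, 28399094 to 28517527 in GRCm38) encodes a co-chaperone that binds the receptor complex and lowers its affinity for hormone. It was at 23, 25.9, 25.9, 26.1 and 27.6 cpm in the 5 ethanol cords and at 95.5, 101, 86.3 and 78.5 cpm in the 4 MC903 cords, a log2 fold change of 1.81 ± 0.07 (SE). The lowest MC903 library held nearly 3 times the level of the highest ethanol library. Hif3a (ENSMUSG00000004328, chromosome 7, 17031507 to 17062427), a hypoxia-inducible factor subunit, was at 20.4, 19.6, 20.8, 22.1 and 23.5 cpm with ethanol and at 93.4, 97.9, 81.7 and 74.2 cpm with MC903 (log2 fold change 2.02 ± 0.08). Within the MC903 cords Fkbp5 and Hif3a had the same order of libraries, highest in replicate 2 and lowest in replicate 4.

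Tsc22d3 (ENSMUSG00000031431, chromosome X, 140539528 to 140600659) encodes GILZ, a leucine zipper protein that restrains inflammatory transcription factors. It was at 177, 193, 198, 171 and 166 cpm with ethanol and at 223, 235, 249 and 228 cpm with MC903 (log2 fold change 0.37 ± 0.08). It differed least among the induced genes, though its groups did not overlap. Sgk1 (ENSMUSG00000019970, chromosome 10, 21882184 to 21999903), a kinase that acts on ion channels and transporters, was at 139, 91.5, 75.7, 55.2 and 44.2 cpm with ethanol and at 457, 461, 457 and 483 cpm with MC903 (log2 fold change 2.49 ± 0.28). The ethanol cords spread more than 3-fold in Sgk1, while the MC903 cords lay close together. Zbtb16 (ENSMUSG00000066687, chromosome 9, 48654297 to 48836222), a zinc finger transcription factor, was at 26.3, 27.7, 33.7, 35.4 and 33 cpm with ethanol and at 55.9, 60.1, 48.1 and 72.3 cpm with MC903 (log2 fold change 0.93 ± 0.12).

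Pdk4 (ENSMUSG00000019577, chromosome 6, 5483351 to 5496309) encodes a mitochondrial kinase that shuts off pyruvate dehydrogenase and so spares glucose. It was at 21.2, 18.8, 18.7, 16.7 and 16.6 cpm with ethanol and at 60.9, 58.3, 43.3 and 39.6 cpm with MC903 (log2 fold change 1.44 ± 0.13). Ddit4 (ENSMUSG00000020108, chromosome 10, 59949669 to 59951834), an inhibitor of mTORC1 signalling, was at 35.3, 38.5, 39.5, 35.8 and 35.2 cpm with ethanol and at 178, 146, 126.3 and 148 cpm with MC903 (log2 fold change 2.02 ± 0.09). The ethanol cords lay close together for Ddit4, far below the lowest MC903 cord. Plin4 (ENSMUSG00000002831, chromosome 17, 56100591 to 56109803), a protein that coats lipid droplets, was at 3.46, 10.7, 11.6, 11.1 and 12.7 cpm with ethanol and at 174, 171, 146 and 125.3 cpm with MC903 (log2 fold change 3.97 ± 0.24). Ethanol replicate 1 was lowest for Plin4 and highest for Sgk1, and without it the log2 fold changes were 3.76 ± 0.09 for Plin4 and 2.83 ± 0.17 for Sgk1. Plin4 overlaps Hdgfl2, a gene with a mean of 32.4 cpm, and the strand setting of the counting is not stated, so reads from the overlap could not be assigned by strand here. Nr3c1 (ENSMUSG00000024431, chromosome 18, 39410545 to 39519421) went the other way, at 94.8, 120.8, 115.7, 116.7 and 118.04 cpm with ethanol and 84.8, 88.8, 88 and 93.5 cpm with MC903 (log2 fold change −0.35 ± 0.07).

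**Figure D1:**
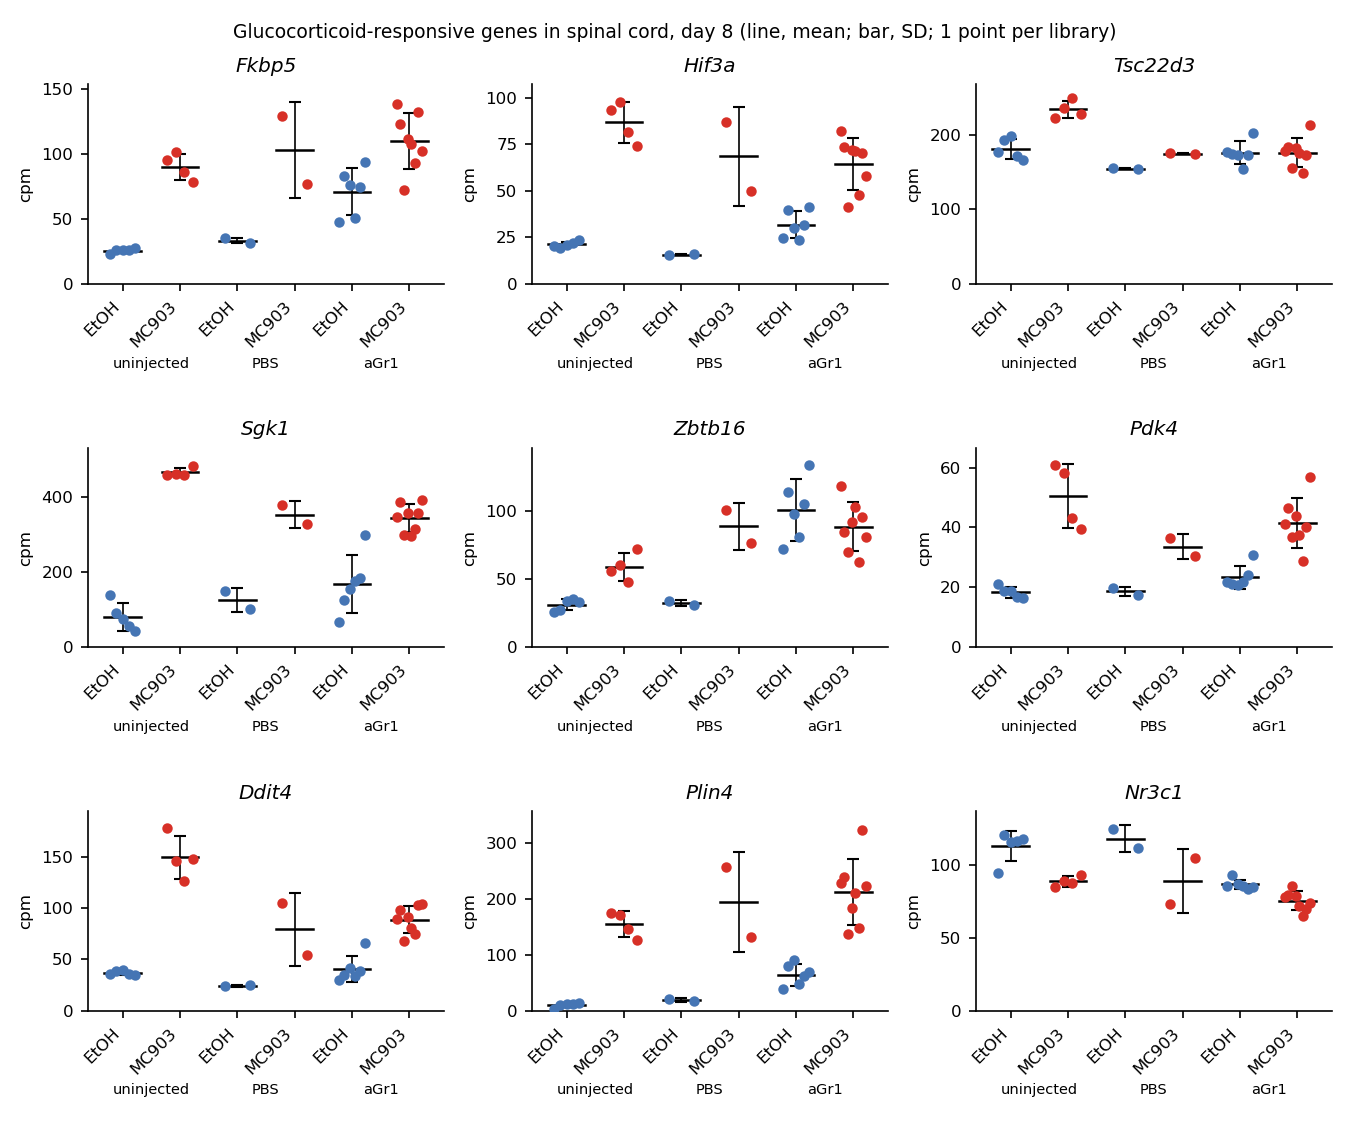
Level in cpm (y axis, linear from 0) of each of the 9 genes in the 27 spinal cord libraries of day 8, by injection group, with ethanol in blue and MC903 in red. Points are libraries, lines are means and bars are SDs, and without injection the 2 colours do not overlap in any panel.

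Among all 25585 genes tested in these cords 5.05% were higher and 7.14% lower with MC903 at an adjusted p under 0.05 in edgeR's quasi-likelihood test, and the 8 induced genes were among the first and Nr3c1 among the second. Since the contrast chose the genes, nothing is read from that count. The median log2 fold change over the 9 genes was 1.81, against 0.01 over all genes tested. Markers of other cells moved with the treatment in the same libraries. The 5 microglia genes were all lower and summed to 72.6 to 122.8 cpm with MC903 against 185.9 to 203.9 with ethanol, and 4 of 5 endothelium genes and 4 of 5 fibroblast genes were lower. Of the 5 oligodendrocyte genes 3 were lower (4254 to 5228 cpm against 4656 to 5720), as were 2 each of the satellite glia and Schwann cell, astrocyte and leukocyte genes. No central neuron gene of 5 passed, and their sum was 2954 to 3308 cpm with MC903 and 2745 to 2950 with ethanol. The part of these cell types in the levels of the 9 genes was not tested.

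In TG of the same day and injection state the same 9 genes differed less. With the libraries of both cohorts pooled, the MC903 libraries were not clear of the ethanol libraries for any of them. Within cohorts Ddit4 was clear in both, and Plin4, Hif3a, Pdk4, Fkbp5 and Nr3c1 were clear in cohort A only. Sgk1, Tsc22d3 and Zbtb16 overlapped in both cohorts. Cohort A has 2 libraries a group, where such gaps arise easily without any effect. The log2 fold changes were 2.53 ± 0.53 for Plin4, 0.71 ± 0.23 for Hif3a, 0.53 ± 0.15 for Ddit4, 0.40 ± 0.22 for Pdk4 and 0.31 ± 0.13 for Fkbp5. Those of Sgk1, Tsc22d3 and Zbtb16 were 0.15 ± 0.11, 0.14 ± 0.10 and −0.10 ± 0.24, and Nr3c1 was at −0.35 ± 0.15. Among all genes 0.160% passed the TG threshold, an adjusted p under 0.1, and none of the 9 did, with 5 of them at an unadjusted p under 0.05 and 2 called by DESeq2. Nothing is read from these counts, since the rule used the contrast. Without the library of low Crlf2 none passed either, and the log2 fold changes of Plin4, Pdk4 and Nr3c1 were 2.58 ± 0.56, 0.67 ± 0.16 and −0.20 ± 0.12.

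In skin of the same day the directions were mixed, and with the cohorts pooled the groups overlapped for every gene. In cohort A alone every gene overlapped too. In cohort B, with 2 MC903 and 3 ethanol libraries, Ddit4 and Sgk1 lay clear above ethanol and Zbtb16, Plin4 and Nr3c1 clear below. The other genes overlapped there. Ddit4 was higher with MC903 (log2 fold change 0.69 ± 0.22) and Zbtb16 lower (−1.10 ± 0.29), the only 2 of the 9 past the threshold, where 12.2% of all genes were higher and 11.2% lower. The log2 fold changes of Sgk1, Fkbp5, Hif3a and Pdk4 were 0.39 ± 0.18, 0.37 ± 0.25, 0.20 ± 0.31 and 0.06 ± 0.36, and those of Tsc22d3, Nr3c1 and Plin4 were −0.36 ± 0.32, −0.39 ± 0.13 and −0.56 ± 0.22. In cohort A alone neither gene passed, and leaving out single libraries gave counts of 1 to 3. The adipocyte list fell in the same comparison, 4 of 5 genes, with a sum of 137.7 to 238.2 cpm with MC903 against 279.2 to 561.9 with ethanol, and its part was not tested.

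The difference between the log2 fold change in cord and that in TG was largest for Sgk1 (2.33 ± 0.30) and was 1.50 ± 0.15 for Fkbp5, 1.48 ± 0.17 for Ddit4, 1.44 ± 0.58 for Plin4, 1.31 ± 0.25 for Hif3a, 1.04 ± 0.25 for Pdk4 and 1.03 ± 0.27 for Zbtb16. For Tsc22d3 it was 0.23 ± 0.13 and for Nr3c1 0.00 ± 0.17. Against skin the difference was largest for Plin4 (4.53 ± 0.33), followed by Sgk1 (2.10 ± 0.33), Zbtb16 (2.03 ± 0.31) and Hif3a (1.82 ± 0.32), and smallest for Nr3c1 (0.04 ± 0.15). With PBS the difference between cord and TG ran from −0.06 for Tsc22d3 to 1.33 for Ddit4 over the induced genes. With aGr1 it was below 0 for 6 of the 8, at −2.31 ± 0.38 for Plin4, −1.19 ± 0.35 for Hif3a, −0.91 ± 0.24 for Zbtb16, −0.66 ± 0.17 for Tsc22d3, −0.34 ± 0.24 for Pdk4 and −0.31 ± 0.21 for Fkbp5, and above 0 for Ddit4 (0.50 ± 0.21) and Sgk1 (0.14 ± 0.27). Cord minus skin with aGr1 was 1.86 ± 0.36 for Plin4 and −1.78 ± 0.53 for Pdk4. This contrast between tissues is the one the genes were chosen on and was not tested. Tissue, treated site, applied volume and library batch cannot be told apart in it.

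**Figure D2:**
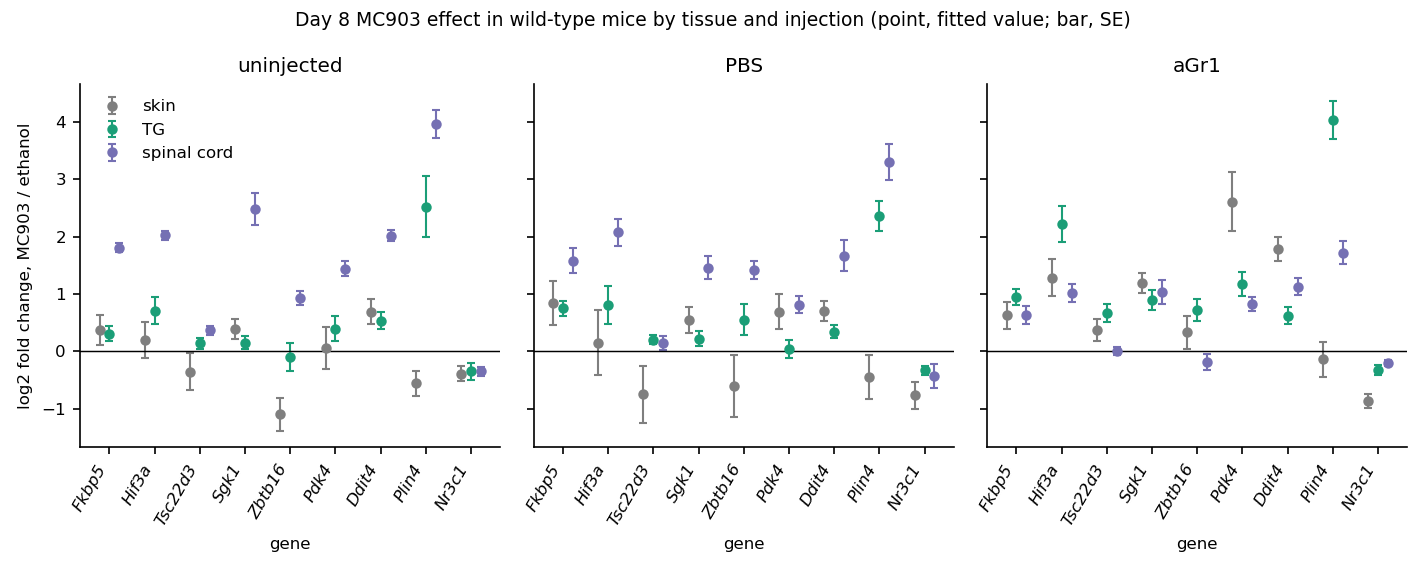
Log2 fold change of MC903 against ethanol at day 8 (y axis) for each of the 9 genes in skin, TG and spinal cord, in 3 panels for mice without injection, with PBS and with aGr1. Points are edgeR estimates and bars their standard errors. Without injection and with PBS the cord points of the induced genes other than Tsc22d3 lie above the TG points, and with aGr1 the TG point of Plin4 (4.04) lies above that of cord (1.72).

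The cords of PBS-injected mice, 2 MC903 and 2 ethanol libraries, had the same directions. Plin4 was at 21.5 and 16.5 cpm with ethanol and at 257 and 131.3 cpm with MC903 (log2 fold change 3.31 ± 0.32). Hif3a was at 15.7 and 15.8 cpm and at 87.2 and 49.8 cpm (2.07 ± 0.24), and Fkbp5 at 35.1 and 31.9 cpm and at 129.6 and 77.2 cpm (1.58 ± 0.23). In each of these genes MC903 replicate 1 was the higher by 1.6-fold or more. Ddit4, Sgk1, Zbtb16 and Pdk4 had log2 fold changes of 1.67 ± 0.27, 1.46 ± 0.20, 1.42 ± 0.16 and 0.81 ± 0.14, Tsc22d3 one of 0.14 ± 0.12 and Nr3c1 one of −0.43 ± 0.21. For all 9 genes the 2 groups did not overlap, which with 2 libraries each arises easily without any effect, so nothing is read from it. No gene of 24573 passed the threshold (0%) in edgeR's quasi-likelihood test, with 1571 genes and 7 of the 9 at an unadjusted p under 0.05, and DESeq2 called 168 genes and 7 of the 9.

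In aGr1-injected mice, with 8 MC903 and 6 ethanol cords, the log2 fold changes were nearer 0 than with PBS for 8 of the 9 genes, all but Pdk4, which was not tested. Plin4 was at 38.5, 64.5 and 90.8 cpm (lowest, median, highest) with ethanol and at 136, 216 and 323 with MC903 (log2 fold change 1.72 ± 0.20). Ddit4 was at 29.7, 36.7 and 65.5 cpm and at 68.2, 90.2 and 104 (1.13 ± 0.15), and Hif3a at 23.5, 31 and 41.2 cpm and at 41.5, 71 and 82.1 (1.02 ± 0.15). In these 3 the groups did not overlap. Sgk1 was at 67.4, 165 and 299 cpm and at 296, 352 and 391 (1.04 ± 0.20), Pdk4 at 20.9, 21.8 and 30.6 cpm and at 28.7, 40.8 and 57 (0.83 ± 0.12), and Fkbp5 at 47.5, 75.6 and 94.0 cpm and at 72.3, 110 and 138 (0.63 ± 0.15). Zbtb16 (−0.19 ± 0.14) and Tsc22d3 (0.00 ± 0.07) gave no such difference, and Nr3c1 was again lower with MC903 (−0.20 ± 0.06). By count 6 genes were higher and 1 lower at an adjusted p under 0.05, where 4.54% of all genes were higher and 6.79% lower, and nothing is read from that count. The 5 microglia genes were all lower here too (98.3 to 177.7 cpm against 181.8 to 205.9), as were 3 of 5 oligodendrocyte genes (4684 to 5544 cpm against 4705 to 5741) and 2 of 5 satellite glia and Schwann cell genes (312.3 to 548.5 against 379.6 to 846.8), and their part was not tested.

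In several of the genes the ethanol cords themselves stood higher with aGr1 than with PBS. The 2 were compared in ethanol mice, 6 libraries against 2. The choice of the genes did not read this contrast, but the levels of these libraries were in view. The p values below are therefore a description and not independent support. Zbtb16 was at 34 and 30.8 cpm with PBS and at 72.1 to 134 cpm with aGr1 (log2 fold change 1.56 ± 0.19, adjusted p 7.7e-05 by edgeR's quasi-likelihood test). Plin4 rose from 21.5 and 16.5 cpm to 38.5 to 90.8 cpm (1.68 ± 0.27, adjusted p 0.00055 in edgeR), Fkbp5 from 35.1 and 31.9 to 47.5 to 94.0 (1.01 ± 0.21, adjusted p 0.0030), Hif3a from 15.7 and 15.8 to 23.5 to 41.2 (0.93 ± 0.19, adjusted p 0.0023) and Ddit4 from 23.6 and 24.7 to 29.7 to 65.5 (0.67 ± 0.22, adjusted p 0.036). Nr3c1 fell from 124.8 and 111.7 cpm to 83.7 to 93.1 cpm (−0.52 ± 0.06, adjusted p 4.5e-05 in edgeR). None of these 6 overlapped between the groups. Sgk1 (0.34 ± 0.36), Pdk4 (0.25 ± 0.13) and Tsc22d3 (0.11 ± 0.08) did not pass. In this comparison 15.2% of all 26240 genes were higher and 14.6% lower, so that 5 higher and 1 lower of 9 stand beside a wide change over the transcriptome, and the median over the 9 genes was 0.67 against 0.03 over all genes. The number of all genes called, 7828, was 2704 without PBS replicate 1 and 6233 to 7887 without each of the others. DESeq2 called 5 of the 6, all but Ddit4 (adjusted p 0.0964), which also did not pass in edgeR without PBS replicate 1 or 2 or aGr1 replicate 3. With library totals alone the median of all genes was 0.10, and the same 6 genes passed. Injection and library batch cannot be told apart, and of the microglia genes 2 were higher and 1 lower, of the astrocyte genes 1 higher and 3 lower.

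The same comparison of ethanol mice showed no called member in the other tissues. In TG 15.2% of all genes passed and none of the 9, with 2 of them at an unadjusted p under 0.05 and 1 called by DESeq2. In skin 0.147% of all genes passed and none of the 9, again with 2 at an unadjusted p under 0.05 and 0 by DESeq2. Single libraries moved these backgrounds, from 3622 genes to between 1049 and 8029 in TG and from 37 to between 0 and 455 in skin. Plin4, the gene with the largest aGr1 difference in cord, was at −0.12 ± 0.41 in TG and at 0.77 ± 0.41 in skin (adjusted p 0.89 and 0.35 in edgeR). Whether these values differ between tissues was not tested.

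In TG the log2 fold changes of Plin4 and Hif3a were largest in aGr1-injected mice, with 4 libraries a group. Plin4 was at 9.29, 3.34, 4.02 and 8.11 cpm with ethanol and at 145, 111, 55.5 and 94.1 cpm with MC903 (log2 fold change 4.04 ± 0.33). Hif3a was at 6.67, 2.76, 1.73 and 2.59 cpm and at 20.9, 16.6, 13.1 and 12.9 cpm (2.22 ± 0.31). In both genes all 4 MC903 libraries lay above the highest ethanol library. Pdk4 was at 24.3, 11.6, 12.5 and 16.2 cpm and at 46, 34.9, 27.8 and 35.9 cpm (1.17 ± 0.21), and Fkbp5 at 72.8, 56.1, 44.9 and 48.1 cpm and at 119.1, 86.2, 99.0 and 118.1 cpm (0.95 ± 0.15). Ethanol replicate 1 was the highest of its group in all 4 of these genes. Sgk1 (0.89 ± 0.17), Tsc22d3 (0.66 ± 0.16) and Ddit4 (0.62 ± 0.15) rose too and Nr3c1 fell by 0.33 ± 0.09, each past the TG threshold of 0.1 in edgeR. Zbtb16 (0.72 ± 0.19) did not pass. By count 7 of the 9 were higher and 1 lower. Among all genes 0.875% were higher and 1.01% lower, and nothing is read from the count. Leaving out MC903 replicate 2 or 4, or ethanol replicate 3 or 4, left 5 past the threshold. In the same comparison 3 of 5 fibroblast genes fell (660.2 to 1022 cpm against 987.7 to 1423) and 2 of 5 microglia genes fell, and their part was not tested.

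In TG of PBS-injected mice, 4 MC903 and 3 ethanol libraries, Plin4 was at 11.7, 5.57 and 3.61 cpm with ethanol and at 29.3, 33.8, 45.1 and 31.7 cpm with MC903 (log2 fold change 2.37 ± 0.26). Fkbp5 was at 57.1, 54.7 and 44 cpm and at 98.8, 104, 84.2 and 63.5 cpm (0.75 ± 0.14). Both genes were free of overlap, and Nr3c1 fell by 0.33 ± 0.08 with overlap. Past the threshold 2 of the 9 were higher and 1 lower, beside 1.91% higher and 1.45% lower of all genes, with nothing read from it. Hif3a was at 6.90, 4.36 and 1.58 cpm with ethanol and at 7.03, 8.88, 8.78 and 4.75 cpm with MC903 (0.81 ± 0.33). Without ethanol replicate 3 only 1 gene passed, and without MC903 replicate 4, 5 did. In these ganglia 3 of 5 fibroblast genes fell and 3 of 6 sensory neuron genes rose (3451 to 4133 cpm against 3191 to 3267), and their part was not tested.

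The difference between the aGr1 and PBS effects in TG was tested in 1 fit and no member passed. The differences were 1.68 ± 0.48 for Plin4 (adjusted p 0.29 in edgeR), 1.43 ± 0.51 for Hif3a (0.44) and 1.15 ± 0.30 for Pdk4 (0.24), and 0.0349% of all genes passed. At an unadjusted p under 0.05 there were 5 of the 9, and DESeq2 called 0. In skin the difference was 1.96 ± 0.74 for Pdk4 (adjusted p 0.37 in edgeR) and 1.13 ± 0.30 for Ddit4 (0.17), again with none of the 9 past the threshold and 0.232% of all genes past it. There 4 of the 9 had an unadjusted p under 0.05, and DESeq2 called 1. These tests use the same libraries as the comparisons of MC903 with ethanol in each injection group. The values of those comparisons were in view in the choice of the genes. The p values and counts here are therefore a description and not independent support. In cord the effects stood at 3.31 ± 0.32 with PBS and 1.72 ± 0.20 with aGr1 for Plin4, at 2.07 ± 0.24 and 1.02 ± 0.15 for Hif3a and at 1.42 ± 0.16 and −0.19 ± 0.14 for Zbtb16, side by side and untested.

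**Figure D3:**
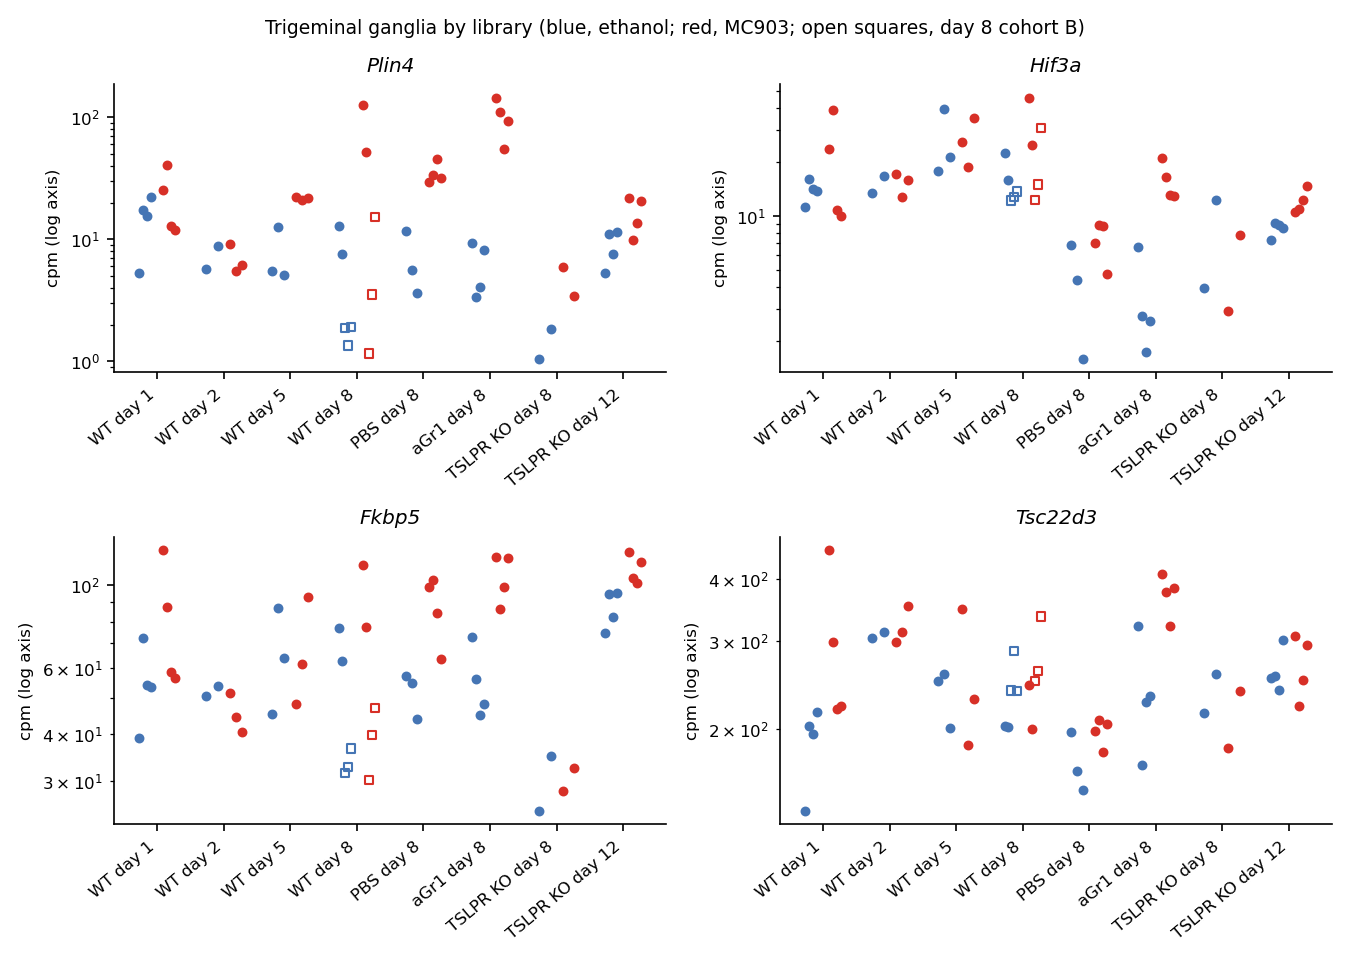
Level in cpm (y axis, log scale) of Plin4, Hif3a, Fkbp5 and Tsc22d3 in the 56 TG libraries, by day, genotype and injection, with ethanol in blue and MC903 in red. Each point is a library, and open squares mark cohort B of day 8. The MC903 points of Plin4 lie clear of the ethanol points with PBS, with aGr1, at day 5 and in the TSLPR.KO ganglia of day 8.

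The 2 cohorts of day 8 TG differed in level. In cohort A Plin4 was at 12.8 and 7.58 cpm with ethanol and at 125.1 and 52 cpm with MC903. In cohort B it was at 1.87, 1.35 and 1.90 cpm with ethanol and at 1.15, 3.52 and 15.2 cpm with MC903. MC903 replicate 1 of cohort B lay below every ethanol library of its cohort. Fkbp5 showed the same split between cohorts, at 76.9 and 62.8 cpm in the ethanol libraries of cohort A and at 31.4, 32.7 and 36.6 cpm in those of cohort B.

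In the earlier TG of wild-type mice no member passed the threshold. At day 1 (0% of all genes called), 3 of the 9 had an unadjusted p under 0.05 and DESeq2 called 0, and the log2 fold changes ran from 0.07 ± 0.12 for Nr3c1 to 1.02 ± 0.35 for Pdk4. The MC903 replicates 1 and 2, those with the most oligodendrocyte RNA, were the highest libraries of that day for every induced gene but Ddit4. Fkbp5 was at 124.4 and 87.3 cpm in them. Without replicate 1 the log2 fold change of Pdk4 was 0.68. At day 2 (0% called) none of the 9 had an unadjusted p under 0.05 and DESeq2 called 0, with values between −0.21 ± 0.16 for Fkbp5 and 0.60 ± 0.33 for Ddit4. At day 5 Plin4 alone stood apart, at 5.46, 12.7 and 5.13 cpm with ethanol and at 22.2, 20.8 and 22 cpm with MC903 (log2 fold change 1.54 ± 0.31). There 0.00823% of all genes passed, 1 member had an unadjusted p under 0.05 and DESeq2 called 1. With the replicate number as a block Plin4 had a log2 fold change of 1.64 ± 0.27 and passed. The values of that day hint at such a pairing, and the labels do not give it.

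In TSLPR.KO ganglia at day 8, 2 libraries a group, Plin4 was at 1.04 and 1.82 cpm with ethanol and at 5.98 and 3.45 cpm with MC903 (log2 fold change 1.82 ± 0.51). The MC903 library with 5.98 cpm also held 142.8 cpm of keratinocyte genes, and without it the log2 fold change was 1.27. None of the 9 passed (0% of all genes), 2 had an unadjusted p under 0.05 and DESeq2 called 0. At day 12, 4 libraries a group, Hif3a was at 7.27, 9.15, 8.87 and 8.51 cpm with ethanol and at 10.49, 10.9, 12.2 and 14.7 cpm with MC903 (0.54 ± 0.12), with no overlap. Fkbp5 (0.39 ± 0.10) did not overlap either, and Plin4 (0.92 ± 0.27) did. None of the 9 passed, where 0.304% of all genes did, with 3 at an unadjusted p under 0.05 and 2 called by DESeq2. The values of these libraries hint at a pairing by replicate number, which the labels do not give. With that number as a block Hif3a (0.53 ± 0.10) passed the TG threshold.

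In skin the 9 genes moved in both directions, and the direction of a gene was not the same in every group. The largest falls were in BLT1.KO skin at day 8, 3 libraries a group. Tsc22d3 was at 502, 758 and 731 cpm with ethanol and at 150, 141 and 163 cpm with MC903 (log2 fold change −2.17 ± 0.20). Zbtb16 was at 235, 193 and 163 cpm and at 62.9, 47.4 and 40.7 cpm (−2.01 ± 0.18), and Hif3a at 37.6, 33.2 and 32.4 cpm and at 14.1, 11.2 and 10.9 cpm (−1.55 ± 0.13). In all 3 genes the ethanol libraries of this genotype held the highest skin levels of any group. Plin4, Pdk4, Ddit4, Nr3c1 and Fkbp5 fell by 1.67, 1.29, 1.13, 1.02 and 0.99 on the log2 scale, each free of overlap. Sgk1, at 176, 250 and 217 cpm with ethanol and 199, 184 and 194 with MC903, did not pass (−0.19 ± 0.15). The count was 8 of 9 lower, beside 14.1% higher and 14.6% lower of all genes, and nothing is read from it. All 5 adipocyte genes (155.7 to 202.5 cpm against 505.7 to 755.7) and all 5 skeletal muscle genes fell with them and 3 of 5 neutrophil genes rose (131.7 to 389.5 cpm against 12.99 to 25.18), and their part was not tested.

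In skin of aGr1-injected mice, 4 libraries a group, 4 of the genes rose and Nr3c1 fell. Pdk4 was at 129.3, 29.2, 38.3 and 27.6 cpm with ethanol and at 370, 443, 269 and 644 cpm with MC903 (log2 fold change 2.61 ± 0.51). Ddit4 was at 29.3, 15.7, 34.2 and 27.3 cpm and at 137, 120.9, 82.5 and 129.2 cpm (1.79 ± 0.20). In both genes the MC903 libraries lay clear of the ethanol ones. Hif3a (1.28 ± 0.33) and Sgk1 (1.19 ± 0.17) rose as well, and Nr3c1 fell by 0.87 ± 0.12. By count 4 were higher and 1 lower, beside 15.1% higher and 17.5% lower of all genes, and nothing is read from that. Library totals alone moved the median of all genes from −0.02 to 0.34. There 5 genes passed, with Fkbp5 (1.02 ± 0.24) gained and Nr3c1 (−0.50 ± 0.19) lost. All 5 adipocyte genes fell (391.4 to 634.1 cpm against 794.4 to 1867) and 3 of 5 neutrophil genes rose (171.7 to 183 cpm against 6.11 to 21.4), and their part was not tested. The neutrophil list is S100a8, S100a9, Cxcr2, Mpo and Ly6g, and its sum is not a count of neutrophils. In PBS-injected skin, 2 MC903 and 3 ethanol libraries, none of the 9 passed (3.99% of all genes), 3 had an unadjusted p under 0.05 and DESeq2 called 1. Ddit4 (0.70 ± 0.17) came nearest.

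In TSLPR.KO skin at day 8, 3 MC903 and 2 ethanol libraries, several of the genes also fell. Fkbp5 was at 66.3 and 50.02 cpm with ethanol and at 20.1, 18 and 27.5 cpm with MC903 (log2 fold change −1.39 ± 0.24). Zbtb16 (−1.43 ± 0.26), Tsc22d3 (−1.40 ± 0.29) and Pdk4 (−1.12 ± 0.25) fell too, and Sgk1 was at 0.26 ± 0.24. Past the threshold 4 of the 9 were lower and 0 higher, beside 1.30% higher and 1.14% lower of all genes. Nothing is read from that count, which fell to 0 without MC903 replicate 2. At day 12, 4 MC903 and 3 ethanol libraries, Pdk4 (−1.15 ± 0.27), Plin4 (−0.95 ± 0.21) and Zbtb16 (−0.87 ± 0.24) fell, where 5.41% of all genes were higher and 4.62% lower. With library totals alone, which moved the median of all genes from −0.02 to 0.16, none of the 9 passed.

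In skin of wild-type mice without injection, Ddit4 was the member higher at day 1. It was at 45.4, 62.1, 46.4 and 44.9 cpm with ethanol and at 121.6, 110, 77.8 and 102 cpm with MC903 (log2 fold change 1.0 ± 0.12), without overlap. Nr3c1 fell by 0.80 ± 0.11, from 187 ± 31 to 110 ± 21 cpm (SD, n = 4), and Sgk1 by 0.49 ± 0.11. The count was 1 higher and 2 lower, beside 5.51% higher and 7.47% lower of all genes, and nothing is read from it. With library totals alone Sgk1 (−0.44 ± 0.15) no longer passed. At day 2 none of the 9 passed (0% of all genes), 2 had an unadjusted p under 0.05 and DESeq2 called 0. There Pdk4 was at 41.6 and 32.3 cpm with ethanol and at 121.2, 88.8 and 52.5 cpm with MC903 (1.21 ± 0.44), and without replicate 3, the library with sensory neuron RNA, its log2 fold change was 1.50. At day 5 Zbtb16 was at 111, 150 and 58.8 cpm with ethanol and at 30.1, 16.8 and 39.2 cpm with MC903 (−1.94 ± 0.33), and Fkbp5 (−0.95 ± 0.23), Plin4 (−1.38 ± 0.34) and Nr3c1 (−0.83 ± 0.21) fell. By count 4 were lower and 0 higher, beside 8.15% higher and 6.78% lower of all genes, with nothing read from it. With library totals alone, or without ethanol replicate 1 or 2 or MC903 replicate 1 or 2, only 1 passed. Adipocyte genes fell at day 5 as well, 4 of 5, and their part was not tested.

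**Figure D4:**
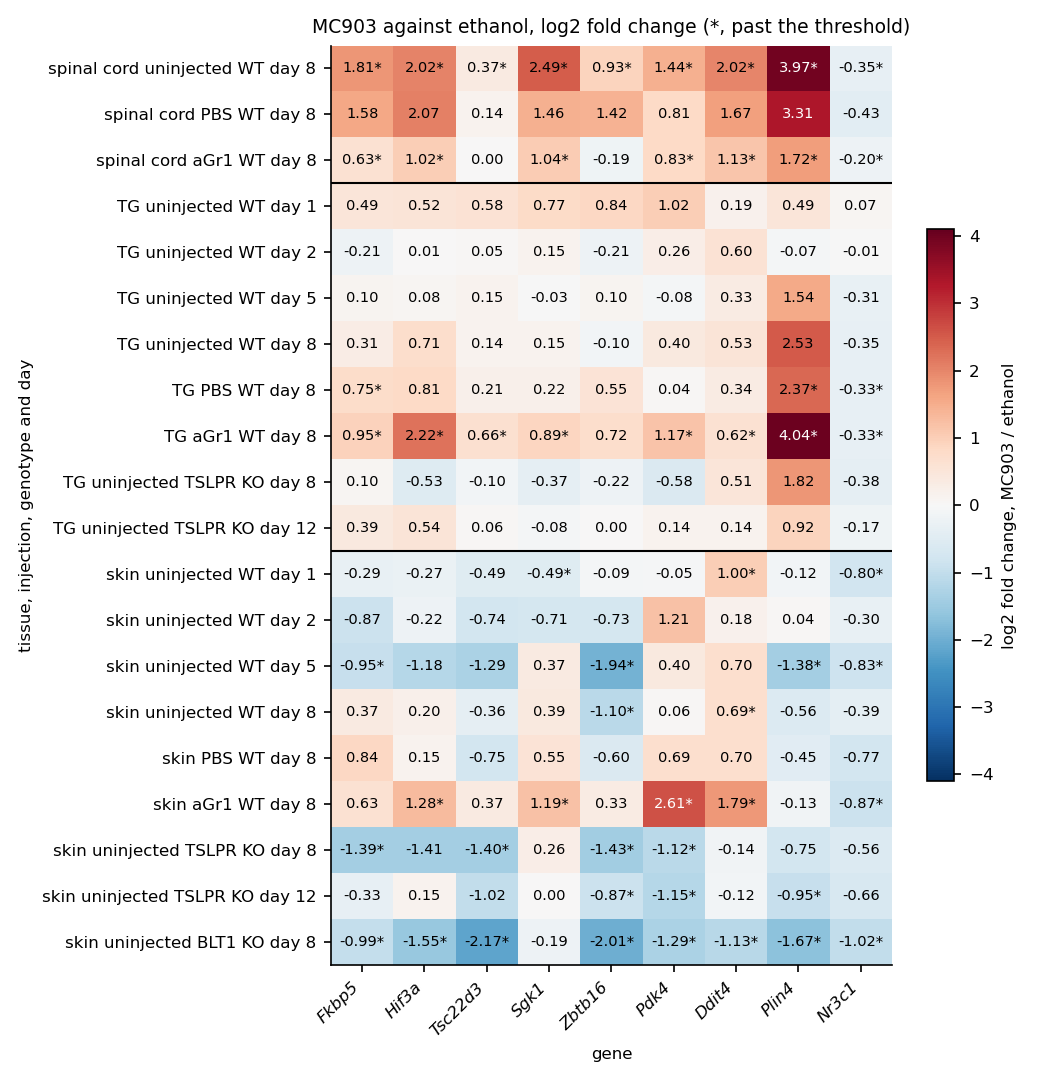
Log2 fold change of MC903 against ethanol (colour, red higher and blue lower with MC903) for the 9 genes (columns) in the 20 comparisons (rows). A star marks an adjusted p under 0.05 in skin and cord or 0.1 in TG in edgeR. Apart from the Nr3c1 column and Zbtb16 with aGr1 (−0.19), no cord cell is blue, and in the BLT1.KO row of skin every cell is blue.

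Across the 20 comparisons Nr3c1 had a log2 fold change below 0 in all but the TG of day 1 (0.07 ± 0.12), and it passed the threshold in 8 of the 20, each time lower. In the 2 cord comparisons past the threshold that size was −0.35 ± 0.07 and −0.20 ± 0.06, and in skin it reached −1.02 ± 0.12 in the BLT1.KO mice. Plin4 was above 0 in every cord and, except at day 2 (−0.07 ± 0.28), in every TG comparison, and below 0 in every skin comparison except that of day 2 (0.04 ± 0.62).

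Levels of the genes in the 3 tissues were compared in ethanol mice without injection at day 8, per kilobase of exon so that genes can be set beside each other. The levels of these libraries were in view when the genes were chosen, so the p values below are a description and not independent support. In cord the order was Tsc22d3 (41.7 cpm per kb), Ddit4 (21), Sgk1 (16.5), Nr3c1 (14.7), Zbtb16 (5.91), Pdk4 (5.24), Hif3a (3.17), Fkbp5 (2.71) and Plin4 (1.72). In TG Tsc22d3 (53.9) and Ddit4 (46.1) again led and Plin4 (0.883) again came last, and in skin Ddit4 (46.7), Tsc22d3 (38.0) and Sgk1 (33.3) led and Hif3a (0.880) came last. Between the cord libraries Sgk1 overlapped its neighbours Ddit4 and Nr3c1, and Zbtb16 overlapped Pdk4, while the other neighbours did not overlap. In skin all neighbours overlapped but Fkbp5 and Hif3a. On the cpm scale, Plin4 was lower in TG than in skin by 4.43 ± 0.60 and lower in cord than in skin by 3.54 ± 0.32 on the log2 scale, with adjusted p of 1.4e-05 and 1.3e-07 in edgeR's quasi-likelihood test. Pdk4 was lower than in skin by 1.96 ± 0.34 in TG and by 1.98 ± 0.28 in cord (adjusted p 1.4e-04 and 1.8e-05 in edgeR). Hif3a was the reverse, higher than in skin by 1.54 ± 0.36 in TG and 2.0 ± 0.32 in cord (adjusted p 0.0016 and 5.0e-05 in edgeR). Between the nervous tissues Ddit4 (−1.15 ± 0.11, adjusted p 1.6e-06 in edgeR) and Fkbp5 (−0.93 ± 0.22, adjusted p 0.0044) were lower in cord, and Plin4 (0.91 ± 0.55), Sgk1 (0.04 ± 0.26) and Pdk4 (−0.06 ± 0.25) did not pass. Without the TG library of low Crlf2 the values of TG against skin were −4.18 ± 0.57 for Plin4, −2.27 ± 0.32 for Pdk4 and 1.62 ± 0.37 for Hif3a, and those of cord against TG −1.20 ± 0.11 for Ddit4, −1.04 ± 0.22 for Fkbp5, 0.67 ± 0.51 for Plin4 and 0.29 ± 0.15 for Pdk4.

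Counted over the 9 genes, TG against skin gave 1 higher and 5 lower beside 28.9% and 31.7% of all genes, cord against TG gave 2 higher and 3 lower beside 19.2% and 20.0%, and cord against skin gave 1 higher and 6 lower beside 32% and 33.8%. Without the TG library of low Crlf2 the counts were again 6 of 9 for TG against skin and 5 of 9 for cord against TG, but the second lost Hif3a (0.39 ± 0.16, adjusted p 0.0702 in edgeR) and gained Nr3c1 (0.59 ± 0.08, adjusted p 5.3e-05). Tissue and library batch cannot be told apart in these comparisons, nor can treated site and applied volume in those with cord. Nothing is read from the counts.

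**Figure D5:**
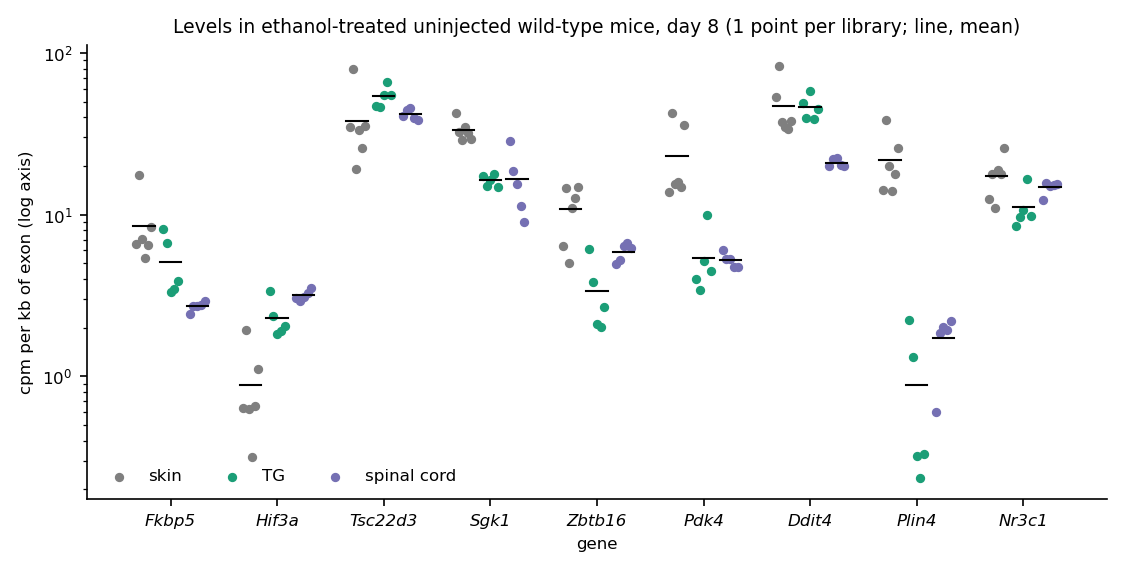
Level per kilobase of exon (cpm per kb, y axis, log scale) of the 9 genes in the ethanol libraries of day 8 without injection, for skin, TG and cord side by side. Points are libraries and lines are means. Plin4 and Pdk4 are highest in skin and Hif3a lowest there, and Tsc22d3 and Ddit4 are at or near the top in each tissue.

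Other genes of the pathway were read from lists chosen with earlier results of these data known. The counts and p values of these lists, here and below, are therefore a description and not independent support. Of 32 further genes known to be raised by glucocorticoids, 24 were higher and 0 lower in the cords without injection (median log2 fold change 1.02), beside 5.05% and 7.14% of all genes. Those with the smallest p were Arrdc2, an arrestin-like protein (15.7 to 74.6 cpm, 2.24 ± 0.11), Sult1a1, a sulfotransferase (7.99 to 49 cpm, 2.62 ± 0.14), Nfkbia, the inhibitor of NF-kB (1.47 ± 0.09), the kinase Map3k6 (2.21 ± 0.15) and the lipase Pnpla2 (2.06 ± 0.14). With aGr1 18 were higher and 0 lower (median 0.46), beside 4.54% and 6.79% of all genes, led by Fam107a (0.98 ± 0.07), the metallothionein Mt1 (0.76 ± 0.06) and Sult1a1 (1.86 ± 0.18), and with PBS none passed, with a median of 0.94. In ethanol cords aGr1 against PBS gave 20 higher and 0 lower, beside 15.2% and 14.6% of all genes, among them Mt1 (0.97 ± 0.08), Mt2 (0.89 ± 0.08), Pnpla2 (0.85 ± 0.10), Irs2 (0.48 ± 0.08) and Cebpb (1.60 ± 0.28), with adjusted p of 1.1e-05, 1.7e-05, 5.0e-05, 0.00044 and 0.00085 in edgeR.

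In TG the same list had 12 higher and 0 lower with aGr1, beside 0.875% and 1.01% of all genes, and 9 higher and 0 lower with PBS, beside 1.91% and 1.45%. Arrdc2 (1.67 ± 0.18), Map3k6 (1.33 ± 0.14) and Fam107a (1.81 ± 0.23) led the first, with adjusted p of 0.00068, 0.00053 and 0.0019 in edgeR, and Mt2 (1.34 ± 0.19), Mt1 (0.96 ± 0.15) and Cebpd (1.0 ± 0.17) the second, with adjusted p of 0.0028, 0.0060 and 0.0079. Arrdc2 was also the 1 gene of the list whose aGr1 effect differed from that with PBS in TG (1.33 ± 0.24). In TSLPR.KO ganglia of day 12 Cebpd alone passed (0.71, adjusted p 0.066 in edgeR), and in the other TG comparisons none did. In skin the list was split. In the BLT1.KO mice 7 were higher and 16 lower, beside 14.1% and 14.6% of all genes, with Sult1a1 (−1.75 ± 0.13), Klf15 (−2.17 ± 0.18), Txnip (−2.09 ± 0.18), Sesn1 (−1.63 ± 0.14) and Per1 (−1.29 ± 0.11) down and the neutrophil-associated Lcn2 (2.13 ± 0.25) up. The counts were 13 higher and 4 lower with aGr1 (15.1% and 17.5% of all genes), 4 and 0 with PBS (3.99% passed in all), 1 and 2 at day 1 (5.51% and 7.47%) and 0 and 0 at day 2 (0%). They were 6 and 7 at day 5 (8.15% and 6.78%) and 8 and 3 at day 8 (12.2% and 11.2%). In TSLPR.KO skin they were 1 and 2 at day 8 (1.30% and 1.14%) and 2 and 6 at day 12 (5.41% and 4.62%).

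Of 15 genes that hold the receptor, convert its hormone or act with it, 1 was higher and 3 lower in cord without injection, beside 5.05% and 7.14% of all genes. Those lower were Fkbp4, a co-chaperone (−0.39 ± 0.10), Stip1, which links heat shock proteins (−0.29 ± 0.09), and Hsd11b1, the enzyme that regenerates active hormone (−0.48 ± 0.13). The one higher, Hsd11b2, was at 0.372 against 0.0662 cpm and near the lowest detectable level. With aGr1 0 were higher and 6 lower (4.54% and 6.79% of all genes), again with Fkbp4 (−0.22 ± 0.04) and Hsd11b1 (−0.47 ± 0.10). No TG comparison of MC903 with ethanol had a gene of this list past the threshold. In skin the mineralocorticoid receptor gene Nr3c2 fell in the BLT1.KO mice (−2.08 ± 0.29, adjusted p 0.0010 in edgeR), beside 3 heat shock cofactors that rose. Of 12 inflammatory genes known to be repressed by glucocorticoids, 9 were higher and 0 lower in skin at day 8 (12.2% and 11.2% of all genes), led by Ptgs2, cyclooxygenase 2 (6.02 ± 0.24), and 10 of 12 in BLT1.KO skin, where 14.1% of all genes were higher. In cord without injection 1 was higher, Il1b at a mean of 0.129 cpm, and 1 lower, the adhesion gene Vcam1 (−0.43 ± 0.10). Among all genes there 5.05% were higher and 7.14% lower. With aGr1 0 were higher and 3 lower, Il1a, Nos2 and Vcam1, beside 4.54% and 6.79% of all genes. In TG with PBS 2 were higher and 0 lower (median log2 fold change 0.82), beside 1.91% and 1.45% of all genes. No other TG comparison of MC903 with ethanol had a gene of this list past the threshold.

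Of the genes of hormone synthesis and the CRH-POMC axis, Crh, which encodes the hypothalamic stress peptide, was the only one past the threshold in cord. It was at 1.12 against 0.394 cpm without injection (1.50 ± 0.34) and at 2.07 against 0.449 cpm with aGr1 (2.19 ± 0.38). In skin at day 8 the steroid enzymes Cyp11a1 (2.37 ± 0.23) and Cyp17a1 (2.46 ± 0.28) were higher and Star (−1.20 ± 0.29) lower, of 9 tested with a median of −1.13, beside 12.2% higher and 11.2% lower of all genes. Of 12 clock genes, some of which the receptor also binds, 4 were higher and 1 lower in cord without injection (5.05% and 7.14% of all genes), with Tef (0.55 ± 0.10) and Cry1 (0.84 ± 0.17) up and Dbp down (−1.09 ± 0.11). Dbp was also lower in TG with aGr1 (−1.66 ± 0.19) and in skin at day 8 (−2.36 ± 0.28), where 8 clock genes were lower and 1 higher. The time of day of collection is not in the labels.

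Within groups, the genes also varied together from library to library. After each group's mean was taken off, Fkbp5 and Hif3a had a Pearson r of 0.93 over the 27 cord libraries, the highest of any pair there, and the mean r of a member with the others ran from 0.60 for Fkbp5 and 0.59 for Ddit4 to 0.33 for Plin4 and −0.07 for Nr3c1. In TG (56 libraries) the closest pair was Fkbp5 and Zbtb16 (0.79), and in skin (61 libraries) Hif3a and Zbtb16 (0.83), while Sgk1 had a mean r of only 0.09 in skin. Over all genes the median of that mean r lay between −0.01 and 0.01 in each tissue. The genes outside the 9 with the highest mean r to the 8 induced genes were Aff1 (0.65), Map3k6 (0.63), Arrdc2 (0.61), Txnip (0.61) and Klf15 (0.61) in cord, of 17180 ranked. In TG they were Arrdc2 (0.66), Mt2 (0.64), Klf15 (0.60), Fam107a (0.59) and Mertk (0.59), of 16874, and in skin Fmo2 (0.53), Per1 (0.53), Txnip (0.53), Adcyap1r1 (0.52) and Lims2 (0.52), of 17563. The libraries of a tissue share depth, preparation and the composition of the tissue, so these values are descriptions and were not tested.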

How the data were processed

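Poly(A)-selected RNA of mouse skin, TG and spinal cord was sequenced from single ends. Per the labels and the study's methods, the authors aligned reads to mm10 with Bowtie2 and TopHat and counted them per gene with HTSeq. The strand setting and annotation release are not given in the sources used here. The deposited values are raw counts per Ensembl gene. Rows that name no gene, reads without a feature (6.15 to 21.54% of a library's counts) and ambiguous reads (1.77 to 13.19%), were left out of totals and tests. Of 46078 gene identifiers 45229 matched a symbol in GENCODE M21.

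The members and the gene lists were chosen with earlier results of these data known, by a rule that reads MC903 against ethanol in every group, and wild-type day 12 was left out by the rule that chose them. All 9 members are named in every comparison, and of each list up to 5 genes a direction with the smallest p among those past the threshold. Beside the 5 gene lists, markers of 15 cell types were read.

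Levels are cpm. MC903 was compared with ethanol within each tissue, day, genotype and injection with edgeR 4.0.16 (R 4.3.3; quasi-likelihood F test, TMM scaling, genes with at least 10 counts over the libraries fitted, cohort as a term for day 8 skin and TG without injection). P values were adjusted by Benjamini-Hochberg over all genes tested, with thresholds of 0.05 in skin and cord and 0.1 in TG, those of the study. Errors of fold changes are standard errors. Alternatives were DESeq2 1.42.0, other scalings and filters, single libraries left out and the replicate number as a block. The fits were tested on simulated data. Likeness is Pearson's r of log2(cpm + 0.5) after each group's mean was taken off, over genes of at least 1 cpm.

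Same-numbered libraries deviated together, with every pair's correlation over 0.1, only in TG of TSLPR.KO mice at day 12 (4 pairs, 0.235 to 0.627) and in wild-type TG at day 5 (3 pairs, 0.165 to 0.375), a hint from the values and not from the labels. Promoter windows came from RefSeq (GRCm38.p6) and gene positions from GENCODE.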

Additional observations from a re-analysis of the deposited data

Results flagged for a closer look

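Of 180 sets of one member in one group of 4 to 10 libraries, 18 had a highest or lowest library far from the others, where chance alone gives about 1 in 20. In spinal cord without injection ethanol replicate 1 was lowest for Plin4 (3.46 cpm, next 10.7) and for Nr3c1 (94.8 cpm). In the aGr1 ethanol cords replicate 6 was highest for Pdk4 (30.6 cpm, next 24.1) and Ddit4 (65.5 cpm, next 41.5), and replicate 2 for Nr3c1 (93.1 cpm). In TG the ethanol library of day 8, cohort B, replicate 2, whose Crlf2 went against its label, was highest for Pdk4 (35.1 cpm, next 18.2) and Nr3c1 (127.7 cpm, next 82.1), and replicate 4 of the TSLPR.KO MC903 ganglia of day 12 was highest for Zbtb16 (38.4 cpm, next 27.8).

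In TSLPR.KO MC903 skin of day 12, replicate 3 was highest for Tsc22d3 (271.8 cpm) and replicate 2 for Plin4 (126.2 cpm, next 77.8) and Nr3c1 (110.3 cpm, next 78.1). In skin of aGr1 ethanol mice replicate 1 was highest for Pdk4 (129.3 cpm, next 38.3) and Plin4 (444 cpm, next 204). At day 8 ethanol skin of cohort A, replicate 3a, was highest for Fkbp5 (165 cpm, next 79.5) and Tsc22d3 (344 cpm), and MC903 skin of cohort B, replicate 1, was lowest for Zbtb16 (13.3 cpm, next 25.6). At day 1 MC903 skin replicate 3 was lowest for Tsc22d3 (48.7 cpm) and ethanol skin replicate 2 highest for Ddit4 (62.1 cpm, next 46.4).

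In 2 of 39 pairs of effects in skin and TG without overlap of their groups, the MC903 libraries moved opposite ways, a difference that was not tested. In TSLPR.KO mice at day 8 Plin4 had a log2 fold change of −0.75 in skin and 1.82 in TG (skin minus TG −2.56). In wild-type mice at day 2 Sgk1 was at −0.71 in skin and 0.15 in TG (−0.86).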

How the results depend on the processing

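No log2 fold change of a called member turned its direction under any alternative run. The count of members past the threshold stayed within 1.5-fold in 297 of the recomputed counts and moved beyond that in 66. It was 9 in cord without injection whichever library was left out, 6 to 7 in cord with aGr1, 8 in BLT1.KO skin, 5 to 7 in aGr1 skin and 5 to 6 for aGr1 against PBS in ethanol cords. With the replicate block, Tsc22d3 (0.33 ± 0.10) and Nr3c1 (−0.34 ± 0.09) no longer passed in cord without injection. In cord with aGr1 the same block lost Fkbp5 (0.60 ± 0.18) and Nr3c1 (−0.19 ± 0.05). In cord with PBS the count of 0 became 6 with no filter on low counts, 7 with DESeq2, 6 with the replicate block, 8 with the numbers crossed (chosen after seeing the data) and 5 to 8 without single libraries, where a lone library is assumed to vary like the other group. With DESeq2 the counts were 1 in skin with PBS, 5 in TSLPR.KO skin of day 12, 2 in TSLPR.KO TG of day 12, 1 in TG of day 5, 2 in TG of day 8, 1 for aGr1 against PBS in TG and 1 for the difference of effects in skin. With no filter they were 6 in TG with PBS, 1 in TSLPR.KO TG of day 8, 1 at day 5, 4 in TG of day 8, 1 for aGr1 against PBS in TG and 2 for the difference of effects in TG. With library totals alone they were 0 in TSLPR.KO skin of day 12, 1 in skin of day 5 and 1 in skin of day 8. With the replicate block they were 0 in TSLPR.KO skin of day 12 and 1 each in skin of days 2 and 8. In TG they were 7 with PBS and 1 each in TSLPR.KO mice at day 12 and in wild-type mice at day 5. The last 2 are the pairings that the values hint at and the labels do not give. With no cohort term 1 passed in skin of day 8, 0 in cohort A alone and 1 in cohort B alone, and in TG 1 in cohort A alone. Without single libraries the counts ranged over 0 to 4 in TSLPR.KO skin of day 12, 0 to 3 at day 8, 1 to 5 in skin of day 5, 1 to 3 at day 8, 5 to 8 in TG with aGr1, 1 to 5 with PBS, 0 to 2 in TSLPR.KO TG of day 8, 0 to 1 in TG of days 2 and 8, 0 to 3 for aGr1 against PBS in TG and 0 to 1 for the difference of effects in TG. Of the members' recomputed log2 fold changes 2997 kept their direction and side of the threshold, 29 moved and the others gained or lost their call. The causes were not tested. Every member had at least 21 counts in every library.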
